A study of Zea mays with 9 samples.

Results

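ZmbZIP60 is a maize transcription factor of the basic leucine zipper (bZIP) family. When misfolded proteins build up in the endoplasmic reticulum (ER) of plant cells, the sensor IRE1 splices the bZIP60 transcript, and the protein made from the spliced form enters the nucleus and acts on genes of the unfolded protein response. bZIP factors bind DNA as dimers, commonly at short sequences with an ACGT core. The regions described here are the places on the maize chromosomes where a few ZmbZIP60 peaks lay close together. Peaks on chromosomes 1 to 10 were joined into one locus where their edges were at most 10000 bp apart, and loci of 2, 3 or 4 peaks were taken as small clusters. The members were thus chosen by the measured positions of the called ZmbZIP60 peaks. The ZmbZIP60 list held 3042 peaks, of which 2489 in 1749 loci lay on the chromosomes. The small clusters were 198 of these loci and held 475 of these peaks (19.1%). The other chromosomal peaks were 1497 isolated peaks and 517 peaks in 54 blocks of 5 or more.

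The study comprised 9 chromatin immunoprecipitation libraries in 3 groups of 3, all made from B73 maize leaf protoplasts, which are cells freed of their walls. Protoplasts were transformed with a GFP fusion of ZmbZIP60 (GFP-ZmbZIP60C in the titles), with a GFP fusion of a second bZIP factor (GFP-ZmbZIP17C in the titles, bZIP91 in another label field), or with the GFP vector alone, which served as the control. The pull-down was by the GFP tag. All groups shared the seedling growth of 2 and then 7 days and, per the labels, a treatment with tunicamycin at 5 mg per ml in DMSO. Tunicamycin blocks N-glycosylation and so causes ER stress, and no untreated group was compared. The factors were introduced as fusions into isolated cells, and the promoter that drove them is not given in the sources used here. The libraries of each group were merged before peaks were called, and the calls kept 18726110 ZmbZIP60 tags, 126318506 ZmbZIP17 tags and 47193255 control tags. The values below are therefore single values of merged libraries, without a spread between replicates, and intervals cover counting error only. Intervals over peaks or gaps count each one as independent. Those of the same locus need not be, so such intervals are likely too narrow for small clusters and blocks. The merged ZmbZIP60 library carries the numbers 1 and 3 in its name, so it may not hold replicate 2. No comparison between kinds of locus was tested.

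Each peak is described by the ZmbZIP60 tags that covered its summit, by the control background (vector tags over 200 bp, as recovered from the deposited fold), and by the authors' fold enrichment and −log10 q. The caller takes the highest of several window averages as this background, so it is not always a local count. Of the 174 members under 20 control tags, it came from a 10000 bp window at 59 and from a 1000 bp window at 27. Because positions and these values come from the call that chose the members, they are a description. The fold of the 475 peaks had a median of 3.27, quartiles of 2.69 and 4.35 and extremes of 1.56 and 13.2. Their median control background was 54.0 tags, against a mean over the genome of 3.50. Their median length was 331 bp, and the 38 peaks longer than 1000 bp all had at least 20 control tags.

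The small clusters comprised loci with little vector signal and loci with much of it. With low background defined as under 20 control tags, 78 loci held low-background peaks alone (162 peaks), 108 held high-background peaks alone (285 peaks), and 12 held both (28 peaks). In the 78 low-background loci the median was 16.0 ZmbZIP60 tags, against 6.0 control tags, and the median fold was 4.93. In the 108 high-background loci it was 100.0 ZmbZIP60 tags, against 95.0 control tags before scaling, and the median fold was 2.84. The control was scaled by 0.397 to the depth of the ZmbZIP60 library in the call. The lowest fold that was listed on the chromosomes depended on the background (2.59 below 20 tags and 1.54 above), so these folds do not rank the loci by enrichment. On each side of the division at 20 tags, the members resembled the isolated peaks in median fold. At low background the medians were 4.90 for 174 members and 4.90 for 1095 isolated peaks. At high background they were 2.86 for 301 members, 2.86 for 402 isolated peaks and 2.73 for 512 block peaks. Background was not matched within the high class, with median control tags of 93.0 for members, 76.0 for isolated peaks and 94.5 for block peaks. Folds of 5 or more were found at 86 of the 475 peaks, 85 of them at low background.

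**Figure D1:**
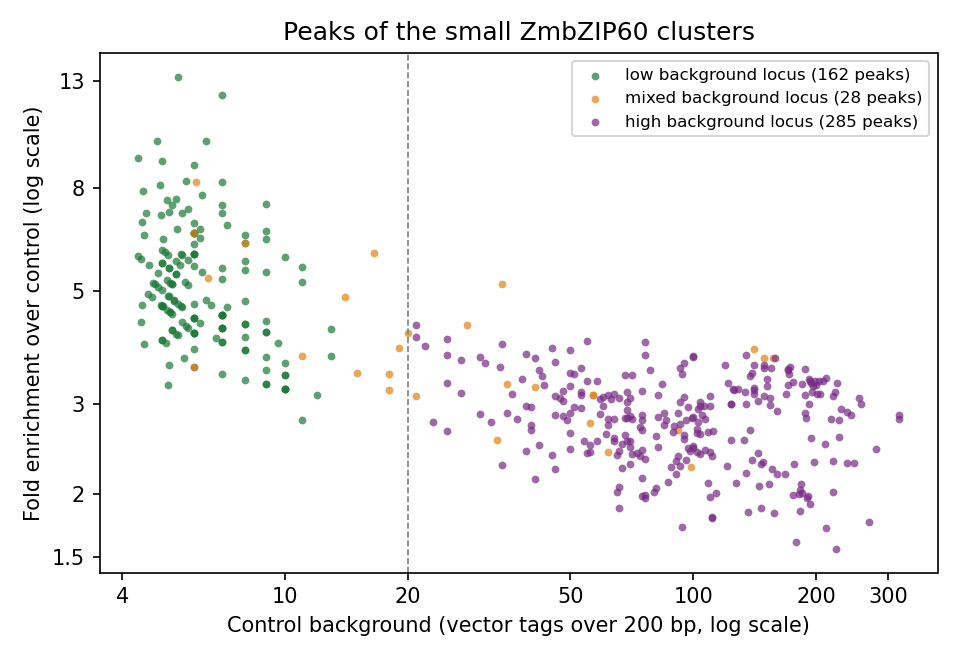
Fold enrichment (log scale) against control background in vector tags over 200 bp (log scale) for the 475 peaks of the small clusters, coloured by the kind of locus, with the division at 20 tags as a dashed line. The 162 peaks of low-background loci sit at 4.36 to 13 control tags with folds of 2.80 to 13.2, and the 285 peaks of high-background loci at 21.0 to 320 control tags with folds of 1.56 to 4.29.

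The kind of locus went with the number of peaks. Of the 142 pairs, 73 were of low, 9 of mixed and 60 of high background. Of the 33 loci of 3 peaks, 4 were low, 2 mixed and 27 high. Of the 23 loci of 4 peaks, 1 was low, 1 mixed and 21 high. Over peaks, 301 of the 475 members lay at high background (63.4%, 95% exact interval 58.9 to 67.7), compared with 402 of 1497 isolated peaks (26.9%, 24.6 to 29.2) and 512 of 517 peaks in blocks (99.0%, 97.8 to 99.7). Peaks of the same locus mostly shared their class, so the intervals of members and of block peaks are too narrow. On either side of the upper limit of the rule, the 23 loci of 4 peaks had a median fold of 3.03 at a median of 89.5 control tags, and the 5 loci of 5 peaks a median fold of 2.60 at 99.0 control tags.

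The highest folds belonged to low-background pairs. At chromosome 1, 197067553 to 197077794, the right-hand peak had 41 ZmbZIP60 tags (95% Poisson interval 29.4 to 55.6), against a control background of 5.48 tags, and a fold of 13.2 with a −log10 q of 33.8. Its partner, 9666 bp to the left, had 15 tags (8.40 to 24.7), against 10 control tags, and a fold of 3.22. This pair was close to the joining limit, and joining up to 5000 bp would not have put its peaks together. The next pair, at chromosome 1, 250043333 to 250046831, was more compact, with 2782 bp between the peaks. Its right-hand peak had 45 tags (32.8 to 60.2), against 7.0 control tags (fold 12.2), and its left-hand peak 18 tags (10.7 to 28.4), against 5.56 control tags (fold 5.93).

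The next 3 pairs in the order of fold had gaps of 212 to 3225 bp. At chromosome 5, 69447480 to 69448578, peaks 224 bp apart had 28 tags, against 4.86 control tags (fold 9.90), and 15 tags, against 10 control tags (fold 3.22). At chromosome 3, 5119542 to 5120452, peaks 212 bp apart had 34 tags, against 6.4 control tags (fold 9.89), and 11 tags, against 4.44 control tags (fold 4.35). In both, a peak of higher fold had one of lower fold directly beside it. On chromosome 3 the Poisson intervals of the tags were apart (23.5 to 47.5 and 5.49 to 19.7). On chromosome 5 they overlapped (18.6 to 40.5 and 8.40 to 24.7), so the tags do not set these partners apart. In both pairs the control values of the partners came from windows of different width, which also enters the contrast in fold. At chromosome 1, 67345376 to 67349467, the partners were 3225 bp apart and had 24 tags (fold 9.16) and 15 tags (fold 5.86), each against 4.36 control tags. This control value was an average over 10000 bp at both peaks. None of these 5 pairs overlapped a ZmbZIP17 peak. At low background, 1 of 174 members, 4 of 1095 isolated peaks and 2 of 5 block peaks did, so this does not set the pairs apart from most low-background peaks.

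Over the 73 low-background pairs, the peak with the higher fold had a median fold of 5.92 and the other one 4.35, with a median ratio of 1.27 and a range of 1.0 to 4.11. The ratio was 2 or more in 7 pairs. The Poisson intervals of the tags of the partners were apart in 3 of the 73 pairs. With medians of 19.0 tags at the peak of higher fold and 15.0 at the other, these intervals are wide, and their overlap does not show that partners were alike. The pairs of high background had a median ratio of 1.12 over 60 pairs, and their tag intervals were apart in 21. This ratio is at least 1.0 by construction and grows with counting error, which is larger at few tags. The medians of 1.27 and 1.12 therefore do not compare how alike the partners were. In all 9 mixed pairs the tag intervals were apart, as the peak with more control tags also had more ZmbZIP60 tags. Mixed pairs have unlike control background by definition, so this largely follows from how they were chosen. The control background also differed 2 times or more in 15 of the 60 high-background pairs. Tag intervals take no account of it, so they do not compare the enrichment of partners.

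Only 5 low-background loci had more than 2 peaks. The only one of 4 lay at chromosome 7, 171377295 to 171386952, where the peaks had 17, 17, 15 and 14 tags, against control backgrounds of 10, 5.16, 5.24 and 5.48 tags. The folds were 3.62, 5.91, 5.2 and 4.73, and the last peak lay 7333 bp from the others. Of the 4 loci of 3 peaks, 2 lay on chromosome 5, at 207742849 to 207748134 and at 208837818 to 208841120. The first had 17, 12 and 12 tags (folds 5.63, 3.44 and 4.11), and the second had 16, 15 and 26 tags (folds 4.5, 3.83 and 7.15). At chromosome 1, 298696252 to 298705306, the tags were 22, 19 and 15 and the folds 7.41, 4.38 and 5.43. At chromosome 8, 157134507 to 157140587, they were 16, 14 and 14 and the folds 4.5, 4.44 and 3.97. No peak of these 5 loci exceeded 26 tags, and none overlapped a ZmbZIP17 peak. The latter is near the share at low background, 1 of 174 members and 4 of 1095 isolated peaks (2 of 5 block peaks).

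Ranked by −log10 q, the small clusters were led by high-background loci. At chromosome 3, 95742004 to 95744876, peaks of 65, 287 and 265 tags stood against 70.0, 212 and 188 control tags, with folds of 2.29, 3.38 and 3.52 and −log10 q of 5.89, 60.8 and 59.4. The first peak was thus far weaker than its neighbours, which lay 499 bp and further to the right. At chromosome 2, 206599810 to 206609597, the 4 peaks had 256, 245, 297 and 283 tags, against 194, 218, 225 and 223 control tags, and folds between 2.81 and 3.30. With gaps of 202, 156 and 217 bp and a first peak of 5040 bp, this locus was nearly continuous.

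The next loci in this order were of the same sort. At chromosome 1, 56682420 to 56685644, the peaks had 274 and 364 tags, against 220 and 320 control tags, with folds of 3.11 and 2.85. The call keeps 1 tag for each position on a strand, so a summit can hold at most 400 tags, and 364 was the highest value among the members. At chromosome 1, 29684405 to 29687581, the 4 peaks had 114, 76, 162 and 314 tags, against 93.0, 60, 125 and 255 control tags. Their folds lay between 3.03 and 3.22, with more ZmbZIP60 tags wherever there were more control tags. At chromosome 5, 55262420 to 55275697, the 4 peaks had 80, 150, 214 and 277 tags, against 88.0, 100.0, 149 and 208 control tags, with folds of 2.26, 3.71, 3.58 and 3.33. The first of them lay 9260 bp from the rest.

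Among loci of 4 peaks, the highest fold was found in the mixed one, at chromosome 9, 34828545 to 34832257. Its peaks had 44, 35, 221 and 74 tags, against 16.6, 33.0, 149 and 34.0 control tags, and folds of 5.94, 2.55, 3.69 and 5.18. The last of these was the highest fold of any high-background member. A second locus of 4 peaks stood nearby on the same chromosome, at 34854116 to 34857108, with 81, 39, 37 and 36 tags, against 70.0, 39.0, 22 and 27.0 control tags (folds 2.85, 2.43, 3.91 and 3.16). At chromosome 6, 63516653 to 63520714, the folds were 3.20, 3.23, 2.67 and 3.98 at 126, 141, 138 and 76 control tags, so the peak with the lowest control background had the highest fold. At chromosome 6, 111095784 to 111098447, the peaks had 39, 60, 67 and 65 tags, against 21, 48, 81 and 61 control tags (folds 4.29, 3.04, 2.05 and 2.62), and both middle peaks overlapped a ZmbZIP17 peak. The widest small cluster spanned 16554 bp at chromosome 6, 14283471 to 14300024. Its 3 peaks had 149, 140 and 136 tags, against 190, 176 and 133 control tags (folds 1.96, 1.99 and 2.55). The lowest fold of all members, 1.56, lay at chromosome 1, 456862 to 457341, in a cluster of 4 that spanned 16204 bp. There 139 ZmbZIP60 tags stood against 224 control tags.

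**Figure D2:**
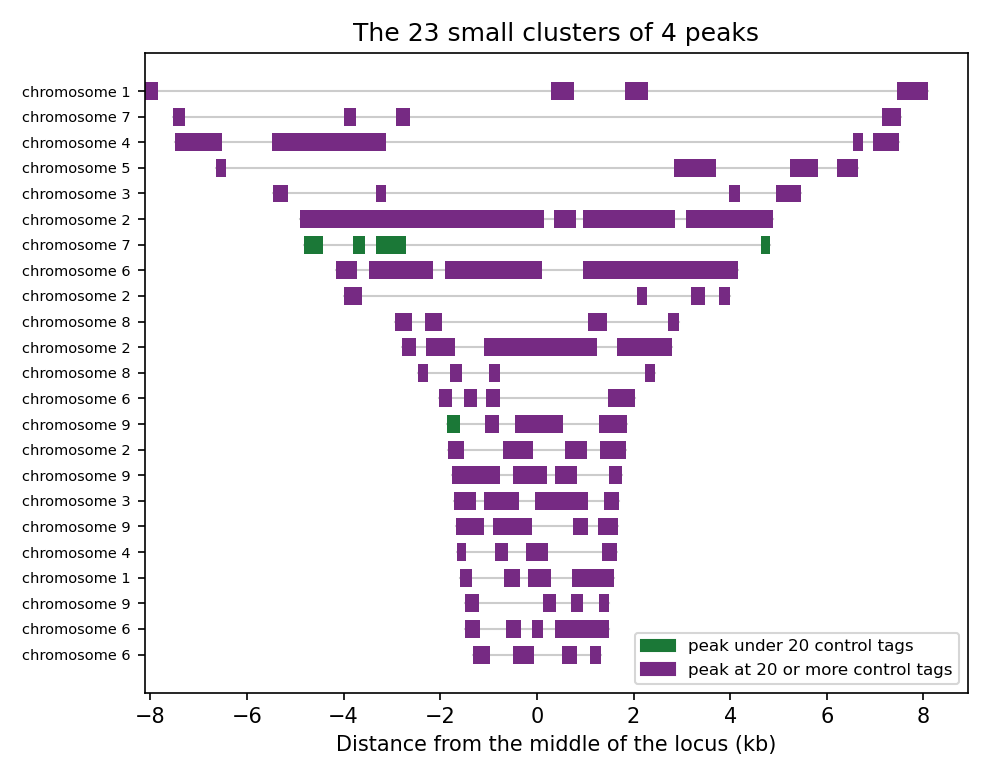
Maps of the 23 small clusters of 4 peaks, 1 per row and ordered by span, with distance from the middle of the locus in kb. Boxes are peaks drawn to scale, coloured by control background; 1 locus on chromosome 7 holds low-background peaks alone and 1 on chromosome 9 holds a low-background peak beside high-background ones.

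The 12 mixed loci put both sorts of peak within a few kb. At chromosome 2, 195226420 to 195233455, a peak of 27 tags, against 6.06 control tags (fold 8.22), lay 6475 bp from one of 73 tags, against 57.0 control tags (fold 3.13). At chromosome 4, 160456568 to 160465681, a peak of 233 tags, against 157 control tags (fold 3.70), lay 8522 bp from one of 21 tags, against 6.0 control tags (fold 6.51). Between the partners of the 9 mixed pairs, the control background differed by 3.18 to 26.2 times. Some members of mixed loci lay close to the division. At chromosome 4, 56969116 to 56970755, the peaks had 63, 32 and 51 tags, against 56, 19 and 28 control tags (folds 2.76, 3.86 and 4.29), and at chromosome 1, 133700553 to 133710989, they had 36, 28 and 11 tags, against 20, 21 and 6.0 control tags (folds 4.14, 3.11 and 3.55).

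Peaks were packed more tightly in the high-background clusters. The bases between neighbouring peaks had a median of 449 bp over 177 gaps in high-background clusters, and 132 of the gaps were under 1000 bp (74.6%, 95% exact interval 67.5 to 80.8). In low-background clusters the median was 1399 bp over 84 gaps, of which 36 were under 1000 bp (42.9%, 32.1 to 54.1). In the blocks of 5 or more peaks it was 426 bp, with 76.7% of 463 gaps under 1000 bp (72.6 to 80.5). Peaks filled a median of 62.2% of the span of a high-background cluster and 32.0% of that of a low-background one. The smallest gap, 148 bp, at chromosome 5 in the locus 145423575 to 145428329, was just above the tag size of 147 bp given in the file header. At the joining limit, the widest gap still joined was 9754 bp at chromosome 7, 18701338 to 18716410, among peaks of 57, 112, 53 and 54 tags, against 56, 84, 38 and 55 control tags (folds 2.50, 3.29, 3.36 and 2.41). The narrowest gap not joined was 10057 bp, on chromosome 9.

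**Figure D3:**
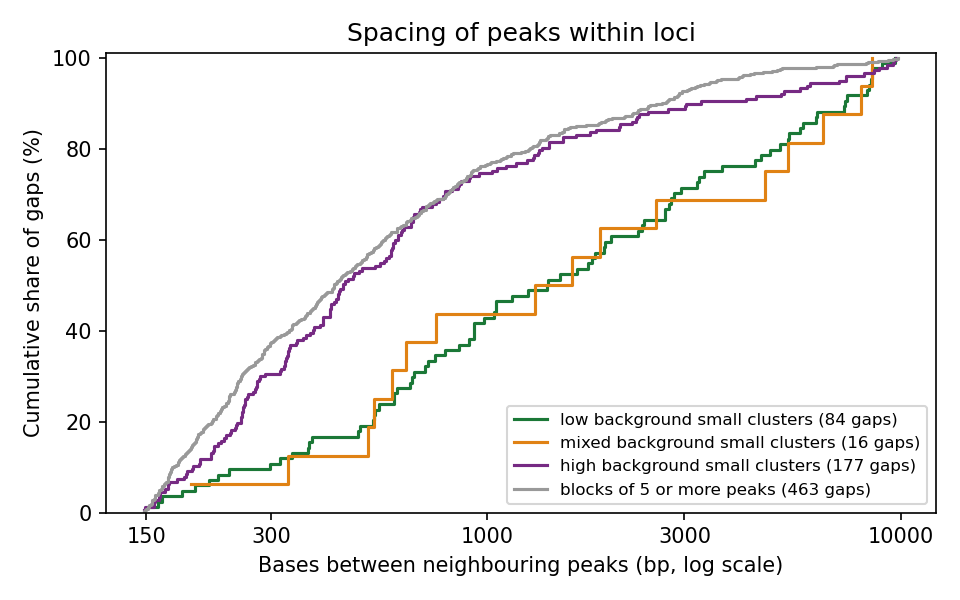
Cumulative share of gaps in percent against bases between neighbouring peaks (log scale), for small clusters of low, mixed and high background and for blocks of 5 or more peaks. The line of the high-background clusters runs close to that of the blocks, with medians of 449 and 426 bp, and that of the low-background clusters lies to the right, with a median of 1399 bp.

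Neighbouring peaks within small clusters mostly shared their background class. Of neighbours up to 500 bp apart, 112 of 113 were in the same class (99.1%, 95% exact interval 95.2 to 99.98), and 32 of 36 neighbours more than 5000 bp apart were (88.9%, 73.9 to 96.9), and these intervals overlapped. Over all chromosomal peaks, the share was 88.6% at 2000 to 5000 bp and 92% from there to the joining distance, so it did not go down at every step. Beyond the joining distance it was 69 of 86 at up to 30000 bp (80.2%, 70.2 to 88.0). It was 371 of 667 beyond 1000000 bp (55.6%, 51.8 to 59.4).

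**Figure D4:**
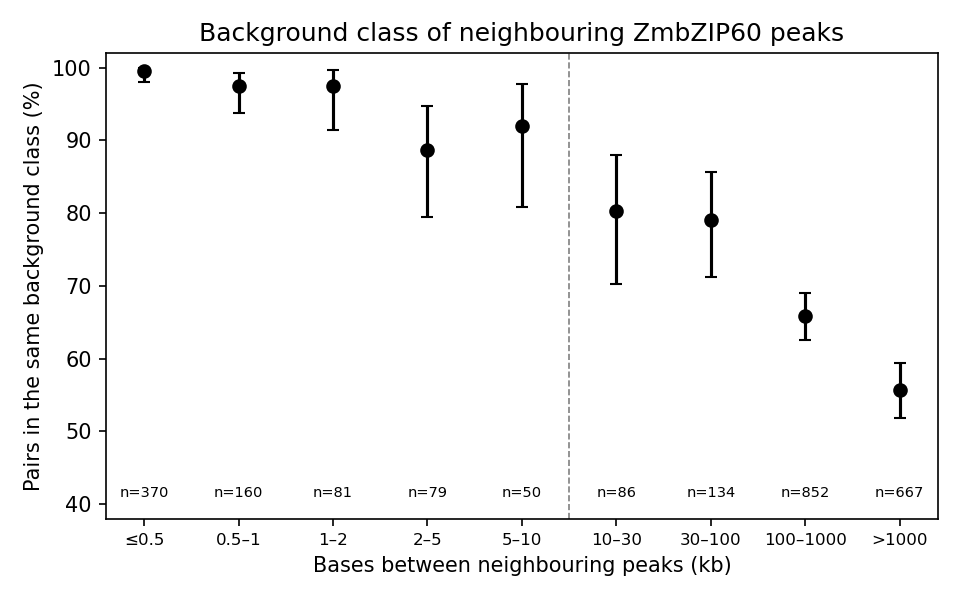
Share of neighbouring ZmbZIP60 peaks in the same background class (percent, with 95% exact binomial intervals) by the bases between them in kb, for all chromosomal peaks, with the number of pairs under each point and the joining distance as a dashed line. The share is 99.5% at up to 0.5 kb and 55.6% at over 1000 kb, with a higher value at 5 to 10 kb (92%) than at 2 to 5 kb (88.6%). The mix of low- and high-background peaks also changes with distance, and the shares are not adjusted for it. The vertical axis does not start at 0.

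All 10 chromosomes held small clusters. Small clusters were 11.3% of all chromosomal loci. Chromosome 1 held the largest number, 30 of its 270 loci (11.1%), and chromosome 10 the smallest, 5 of 105 (4.76%). The highest share was on chromosome 9, with 23 of 144 (16.0%). Low-background clusters were most frequent on chromosomes 1 (15) and 5 (13), and high-background ones on chromosomes 6 (17) and 2 (16). Positions were measured against the last listed ZmbZIP60 position of each chromosome. By that measure, 51 of 78 low-background clusters lay in the outer 25% at either end (65.4%, 95% exact interval 53.8 to 75.8), compared with 767 of 1095 isolated low-background peaks (70.0%, 67.2 to 72.7). For high background it was 52 of 108 clusters (48.1%, 38.4 to 58.0), compared with 217 of 402 isolated peaks (54.0%, 49.0 to 58.9). At each background the intervals of clusters and of isolated peaks overlapped.

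High-background clusters had blocks in their surroundings more often than low-background ones. Of the 97 high-background clusters on chromosomes with a block, 13 lay within 100000 bp of one (13.4%), as did 1 of 70 low-background clusters (1.43%). Of isolated peaks, 11 of 371 at high background (2.96%) and 6 of 1009 at low background (0.595%) did. Some of the 13 clusters lay in the same stretch, such as those starting at 13459326, 13621077, 13668810 and 14283471 on chromosome 6. They are therefore not independent counts, and no interval is given for these shares. Chromosome 8 had no block. The nearest other locus of any kind was at a median of 273228 bp from low-background and 329384 bp from high-background clusters. It was within 100000 bp for 60 of the 198 clusters, and in 18 of these it was another small cluster.

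The second factor gave a readout that did not enter the choice of the members, although both calls used the same control libraries. In plants, bZIP17 is a membrane-anchored factor that is cut and released under ER stress. Of the 475 members, 35 overlapped a ZmbZIP17 peak by at least 1 bp (7.37%, 95% exact interval 5.19 to 10.1). This is close to the share over all chromosomal ZmbZIP60 peaks, 7.51%. Counted as loci, 21 of 198 small clusters held such a peak (10.6%, 6.69 to 15.8), against 3.72% over all chromosomal loci. A locus of several peaks has more chances to hold one. The 35 members met 39 ZmbZIP17 peaks, which were 13.8% of the 282 in that list.

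The overlap lay at intermediate background. None of the 78 low-background clusters held an overlapping peak (95% exact interval 0 to 4.62). The limit used for a count of 0 was 3 counts, which would be 3.85% of 78. Isolated low-background peaks overlapped at 4 of 1095 (0.365%), so the absence is near the general share at this background. Of the 108 high-background clusters, 20 held an overlapping peak (18.5%, 95% exact interval 11.7 to 27.1), with 1 more among the mixed ones. Counted as peaks, 34 of 301 high-background members overlapped (11.3%), compared with 18 of 402 isolated high-background peaks (4.48%). At 20 to 40 control tags, 6 of 30 members overlapped (20%, 7.71 to 38.6), and at 40 to 80 tags 26 of 98 did (26.5%, 18.1 to 36.4). At 80 to 160 tags it was 2 of 110 (1.82%, 0.221 to 6.41), and above that 0 of 63. At 80 to 160 tags, 2 of 160 isolated peaks (1.25%) and 15 of 156 block peaks (9.62%) overlapped, in both classes also less than at 40 to 80 tags. In the ZmbZIP17 call the pull-down was scaled by 0.374, so its pileup could not exceed 149. The pileup that this call needed was above that at 132 of the 475 members (27.8%). These were all 63 with 160 or more control tags and 69 of the 110 at 80 to 160 tags. Of the 41 at 80 to 160 tags under this limit, 1 overlapped (2.44%, 0.0617 to 12.9). Of the 132 above it, 1 still met a ZmbZIP17 peak. The limit was taken from the control background at the ZmbZIP60 summit, while an overlap can lie anywhere in the member. At the other members above it, the lack of a ZmbZIP17 peak therefore says nothing about binding at the summit.

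At like background, the share in small clusters stood between those of isolated peaks and of blocks. At 40 to 80 control tags, 26.5% of 98 members overlapped, compared with 7.14% of 168 isolated peaks (95% exact interval 3.75 to 12.1) and 52.1% of 163 block peaks (44.2 to 60). Counted once per locus in this range, 15 of 65 small clusters did (23.1%, 13.5 to 35.2), compared with 12 of 168 isolated peaks and 19 of 32 blocks (59.4%, 40.6 to 76.3). Median peak lengths were 330 bp in small clusters, 308 bp in isolated peaks and 415 bp in blocks, and their part in these shares was not tested. At 20 to 40 control tags the intervals of small clusters (20% of 30) and isolated peaks (7.55% of 53, interval 2.09 to 18.2) overlapped. At under 20 tags 1 of 174 members overlapped (0.575%) and 4 of 1095 isolated peaks did (0.365%).

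**Figure D5:**
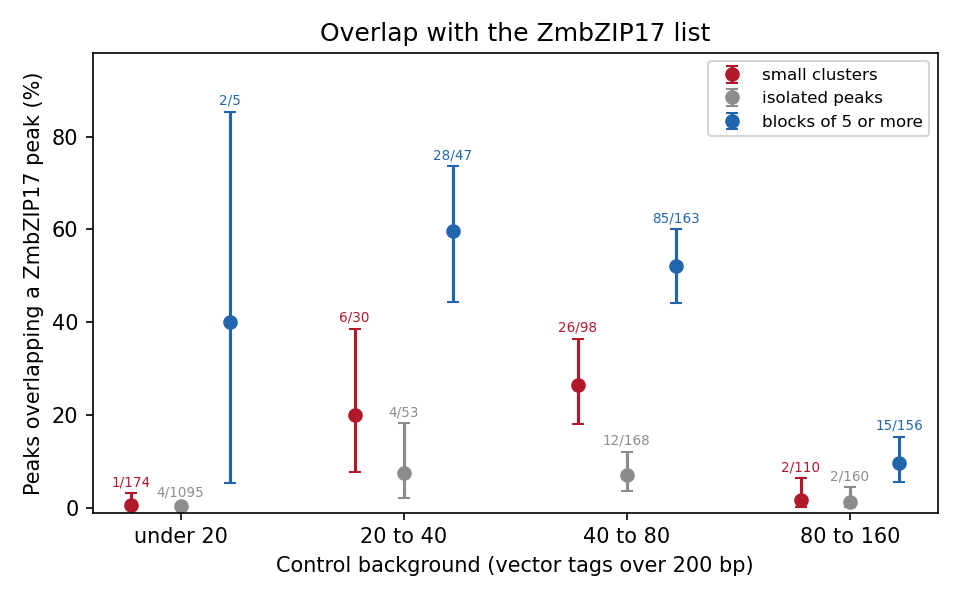
Share of ZmbZIP60 peaks that overlap a ZmbZIP17 peak (percent, with 95% exact binomial intervals) by control background in vector tags over 200 bp, for small clusters, isolated peaks and blocks of 5 or more, with counts above each point. At 40 to 80 tags the small clusters stand at 26.5%, between isolated peaks at 7.14% and blocks at 52.1%. Peaks at 160 tags and above, which all lay above the limit of the ZmbZIP17 call, are left out. At 80 to 160 tags, 69 of 110 members, 95 of 160 isolated peaks and 88 of 156 block peaks also lay above it.

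In most of the 21 loci only some of the peaks overlapped, and in 4 of them all did. At chromosome 9, 115194952 to 115198293, all 4 peaks were shared, among them the one at 115197378, with 49 ZmbZIP60 tags, against 40 control tags. Its fold was 2.96 in the ZmbZIP60 list and 2.51 in the ZmbZIP17 list, and the summits were 19 bp apart. All 4 peaks were also shared at chromosome 6, 54010779 to 54019108, with 56 to 85 ZmbZIP60 tags and folds of 2.54 to 3.12. There the peak at 54011476 had a ZmbZIP17 fold of 2.38, with summits 537 bp apart. At chromosome 9, 90938114 to 90940991, all 3 peaks were shared. The middle one had folds of 3.64 in the ZmbZIP60 and 2.28 in the ZmbZIP17 list, and the right-hand one 3.26 and 2.23. The pair at chromosome 2, 209804490 to 209805617, held the member with the highest ZmbZIP17 −log10 q, 10.7. Its left-hand peak had 42 ZmbZIP60 tags, against 27.0 control tags, and folds of 3.67 in the ZmbZIP60 list and 3.04 in the ZmbZIP17 list. The lists were scaled separately, so their folds do not compare the factors.

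In the 17 loci where some peaks were shared, every shared peak had fewer control tags than every unshared one in 12, more in 2, and neither held in 3. In 4 of the 12, an unshared peak lay above the limit of the ZmbZIP17 call. The loci on chromosomes 4 and 3 named below are among these 4. At chromosome 5, 200542232 to 200547934, the shared right-hand peak had 37 tags, against 21.0 control tags (fold 4.07), and the unshared one 60 tags, against 76.0 control tags (fold 1.96). The summits of the shared peak were 1 bp apart in the lists. At chromosome 4, 156988257 to 156991156, the shared peak had 56 tags, against 34.0 control tags (fold 3.93), with the same summit base in both lists, and its unshared neighbour had 100 tags, against 104 control tags (fold 2.39). At chromosome 3, 153411950 to 153414767, the shared right-hand peak had 61 tags, against 42.0 control tags (fold 3.51), and the others had 114 and 82.0 control tags. At chromosome 2, 470564 to 472021, the shared peak had 79 tags, against 50 control tags (fold 3.84), and its neighbour 82 tags, against 64.0 control tags (fold 3.14). The opposite order was found at chromosome 9, 61918280 to 61923780, where the shared peak had 75 control tags and the others 25 and 50, and at chromosome 2, 79821366 to 79824176, where it had 48 control tags and its neighbour 43. Among high-background members under the limit of the ZmbZIP17 call, the median control background was 48 tags for the 33 overlapping ones and 67.5 for the 136 others, and their median folds were 3.03 and 2.81.

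The low-background member that overlapped was at chromosome 1, 163878610 to 163878883, in a mixed pair. It had 25 ZmbZIP60 tags, against 8.0 control tags (fold 6.23), and a ZmbZIP17 fold of 4.61, the highest among the ZmbZIP17 peaks that met a small cluster, with summits 1 bp apart. Its neighbour, 635 bp to the right, had 55 tags, against 41 control tags (fold 3.24), and met no ZmbZIP17 peak. Over the 39 overlapping pairs of peaks, the summits were a median of 33.0 bp apart, and 22 pairs were within 100 bp. The largest distance, 2058 bp, came from a long peak at chromosome 6, 53500548 to 53503927. A further 4 ZmbZIP17 peaks lay within 10000 bp of a small cluster without touching a member.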

How the data were processed

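Chromatin immunoprecipitation was measured in 9 libraries, 3 per group. The submitters' processing notes name BWA, bedtools, MACS2 and Trimmomatic (0.36), with no order given. Per the file headers, MACS2 (version 2.1.0.20150420) called peaks on merged libraries against the merged vector control, without a model, with 200 bp extension, a q cutoff of 0.05 and 1 tag per position and strand. The deposited pileup is a signal of extended tags at the summit. The deposited fold enrichment is a ratio, (pileup + 1)/(control + 1). The deposited −log10 q and −log10 p are the caller's values. The 1-based coordinates are of B73 assembly version 4, going by the contig names. The annotation at hand is of another assembly, so genes and sequences at the peaks were not analysed here.

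The control background was solved from the deposited fold, divided by the scaling and rounded to 2 decimals. It was whole, within 0.02, for 78.8% of ZmbZIP60 peaks, and the recomputed Poisson −log10 p was within 0.5 of the deposited one for 100% of peaks. The ZmbZIP17 pileup needed at a peak was taken from the lowest −log10 p in that list, 5.39. Overlaps were checked with bedtools 2.31.1, and the joining and overlap steps were tested on simulated data. Intervals are exact Clopper-Pearson (shares) or exact Poisson (tags) at 95%. The rule for naming took the 5 loci with the highest fold, the 5 with the highest −log10 q, the 3 widest, 5 loci of 4 peaks by fold, the extreme gaps, the lowest fold and the 10 overlaps with the highest ZmbZIP17 −log10 q. Low-background loci of more than 2 peaks, the mixed loci, the loci shared at every peak and those with the opposite order of background were named after their values were seen. The members, the background division and the lists were chosen with earlier results of these data known. Scripts ran on pandas 2.3.3, matplotlib 3.10.9, scipy 1.17.1 and numpy 2.4.6 under Python 3.11.15. Alternatives were other joining distances, a stricter q, other background divisions and stricter overlaps.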

Additional observations from a re-analysis of the deposited data

Results flagged for a closer look

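ZmbZIP60 peaks on unplaced contigs were outside the comparisons above, and they too formed small clusters. By the same rule, 53 of 136 contig loci held 2 to 4 peaks, with 154 peaks on 41 contigs. High background was found at 150 of these peaks. Control tags ran from 6.0 to 349 (median 157), and folds ran from 1.68 to 5.49 with a median of 2.21. A contig can end inside a locus, so the number of peaks per locus is not comparable with the chromosomes.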

How the results depend on the processing

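Of 26 alternative values, 22 stayed within 1.5 times a count or within the interval of the reported value, and 4 moved beyond it. These 4 were shares of peaks, whose intervals are likely too narrow, so a move beyond one is not a test. The number of small clusters was 185 with joining up to 5000 bp, 199 with 20000 bp and 195 with peaks at a q of 0.01 or lower. The share of members at high background was 69.0% with joining up to 5000 bp, 57.8% with 20000 bp and 57.1% with the division at 40 control tags, against 63.4% as reported. The share of members that met a ZmbZIP17 peak was 4.63% where summits had to lie within 100 bp, against 7.37% as reported, and 9.91% where members above the ZmbZIP17 ceiling were left out, an alternative added after seeing the data. The causes of these shifts were not tested. No paired analysis was possible because the peak lists were called on merged libraries, and for the same reason no replicate could be left out. The planned values on genes near summits and on ACGT cores were not run, since no genome or annotation of this assembly was used here. Depth limits the low-background members most, which rest on 9 to 45 ZmbZIP60 tags each.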

Other observations

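The caller takes the highest of several control averages as the background, and the recovered values show which one it was, within 0.01 (a whole value can also arise by chance from a wider window). At low background, 88 of 174 members (50.6%) had a whole value, as the 200 bp window gives, compared with 602 of 1095 isolated peaks (55.0%). For 59 of the 174 members (33.9%) the 10000 bp window set the background, compared with 233 of 1095 isolated peaks (21.3%). At high background the 200 bp window set it for 295 of 301 members, compared with 401 of 402 isolated peaks (99.8%) and 455 of 512 block peaks (88.9%).

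Members near the significance limit were few: 5 of the 475 had a −log10 q under 2. The longest member, 6931 bp at chromosome 6, 53505677 to 53512607, had 108 ZmbZIP60 tags and a fold of 2.63. The locus that holds it is the one with the most distant pair of ZmbZIP60 and ZmbZIP17 summits.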
